A study of Mus musculus with 23 samples.

Results

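Cardiomyocytes from mice given isoproterenol were compared between animals lacking Panx1 in cardiomyocytes and animals with an intact gene, 4 libraries against 4, which are 8 of the 23 libraries of the series. The libraries were chosen by genotype and treatment alone. Both groups were male mice carrying a floxed Panx1 gene. The wild-type group is labelled Panx1fl/fl. The knockout group is labelled Panx1myhc6, after Myh6, a cardiac myosin gene whose promoter drives the recombination in heart muscle cells. Both groups received isoproterenol at 15 mg/kg/day for 14 days, so the comparison is of genotype within treated hearts. Total RNA came from isolated cardiomyocytes, and other cell types of the heart keep Panx1 under such a promoter. The sources used here give no strain, age or day of cell isolation. Libraries are taken to come from separate animals, and p-values measure the spread between samples. For single genes in cardiomyocytes that spread is estimated over all 14 cardiomyocyte libraries, including 6 from mice given saline. In this text the knockout libraries are always listed in the order PNXM654, PNXM656, PNXM655 and PNXM646, and the wild-type libraries in the order PNXM644, PNXM647, PNXM645 and PNXM648. By its title, the series asks how the channel bears on the metabolism of heart muscle cells and on neutrophils entering the failing, non-ischemic heart.

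Pannexin 1 forms a large membrane channel that lets ATP and other small molecules leave the cell, and the ATP outside acts on purinergic receptors of neighbouring cells, including leukocytes. Isoproterenol stimulates beta-adrenergic receptors, which raise cyclic AMP, calcium cycling and contractile work in cardiomyocytes and, when given for weeks, lead to hypertrophy. Adult cardiomyocytes draw most of their energy from fatty acids in mitochondria, whose own small genome encodes core subunits of the respiratory chain and 2 ribosomal RNAs, while the nuclear genome encodes all other subunits.

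No gene separated the genotypes after correction for multiple testing. FPKM gives reads per gene after division by gene length in kilobases and by library size in M reads (1000000 reads). In limma's moderated test on log2(FPKM + 1), 0 of 11919 genes (0.0%) had an adjusted p below 0.05, and the smallest adjusted p was 0.797. An unadjusted p below 0.05 was reached by 739 genes (6.2%), with 252 higher in the knockout (2.11%) and 487 lower (4.09%). With only the isoproterenol libraries in the fit, 737 genes reached it, 147 higher and 590 lower. The voom fit of recovered reads likewise called 0 genes, with 720 below an unadjusted p of 0.05. The 4 knockout libraries all lay above the 4 wild-type libraries for 104 genes (0.873%) and all below them for 294 genes (2.47%). Leaving out 1 library moved the count of 739 to 263 without PNXM647, 371 without PNXM654, 432 without PNXM655, 1332 without PNXM648 and 1370 without PNXM656. Every difference below is a knockout minus wild-type difference of log2(FPKM + 1) with its standard error (SE) from limma, and none passes adjustment.

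Reads assigned to genes ranged from 24.4 to 31.9 M in knockout and from 21.03 to 24.9 M in wild-type libraries. The deposited values carry a scaling between libraries, and all differences are relative to it. The library size they imply, divided by assigned reads, was 1.09, 0.860, 0.925 and 0.823 in knockout libraries. In wild-type libraries it was 0.527, 0.426, 0.638 and 0.464, so the scaling itself separated the genotypes. After saline this ratio was 0.861, 0.446 and 0.518 in knockout and 1.29, 1.39 and 0.880 in wild-type libraries, the opposite order. With total assigned reads as the library size, the median difference of all genes moved from 0.01 to 0.55 (log2), 4956 genes were called (4944 of them higher), and several differences below 0 turned positive. These were Panx1, the antigen presentation genes named below, Tcf21, Gsn, Trib3, Aldh18a1, Nr1d1, Entpd2, Gsdmd, Irf8, Gbp2 and Axl, as well as mt-Nd3. When totals outside the mitochondrial chromosome were made equal, the median of all genes was 0.28. A sign under either of these scalings is to be read against that median of all genes. The libraries held RNA of other cell types beside cardiomyocytes. Myh6, the main myosin heavy chain of adult heart muscle, was read at 334 to 1001 FPKM in knockout and 311 to 759 FPKM in wild-type libraries. Gsn, which is abundant in fibroblasts, was read at 623 to 1201 FPKM over the same 8 libraries, and Hba-a1, a globin of red cells, at 2184 to 30100 FPKM, and their part in the differences below was not tested. In bulk RNA, fewer cells of a type and less RNA per cell cannot be told apart.

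Panx1 was read at 0.990, 1.01, 1.22 and 0.948 FPKM in the knockout libraries and at 1.43, 1.89, 1.24 and 1.64 FPKM in the wild-type libraries. The groups did not overlap, although the highest knockout library (PNXM655) lay next to the lowest wild-type library (PNXM645). The knockout mean of 1.04 ± 0.123 FPKM (SD, n = 4) was 1.49-fold lower than the wild-type mean of 1.55 ± 0.282 FPKM (SD, n = 4). An exact permutation test of the FPKM values, two-sided, gave p = 0.0286, the smallest that 4 libraries against 4 allow, and 0.0381 after adjustment over 4 library measures. With any 1 of the knockout libraries left out, or without wild-type PNXM647, the exact p was 0.0571, with a difference of -0.568 to -0.394 FPKM. The limma difference was -0.32 ± 0.14 (SE). It was -0.0872 when totals outside the mitochondrial chromosome were made equal and 0.14 with total assigned reads as library size. The median of all genes was 0.28 and 0.553 under these scalings, so Panx1 stayed below it in both. The non-overlap, the fold and the permutation tests of Panx1 were made on the deposited scale and were not repeated on these scalings. The sources used here do not say which part of the transcript the deletion removes, so reads from the rest of it may remain. Myh6, whose promoter is used, differed by 0.48 ± 0.41.

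Around the channel, the 32 genes listed as pannexins, purinergic receptors and enzymes that break down extracellular ATP had 19 members above the expression filter. Of these, 10 were higher and 9 lower in the knockout, with a median difference of 0.01 against 0.01 over all genes. Panx1 was the only member with an unadjusted p below 0.05 (4.09% of all genes were lower at that level). Non-overlapping groups were seen in 3 members (Panx1, Entpd2 and P2rx1), all lower in the knockout (2.47% of all genes). P2ry2, a receptor for extracellular ATP and UTP, was read at 7.49, 9.32, 8.24 and 5.63 FPKM in knockout and 4.55, 5.13, 5.93 and 6.77 FPKM in wild-type libraries, a difference of 0.39 ± 0.18. Knockout PNXM654, PNXM656 and PNXM655 lay above all wild-type libraries. Entpd2, an ectoenzyme that cleaves extracellular ATP, was at 8.23 to 11.5 FPKM in knockout and 11.7 to 16.4 FPKM in wild-type libraries, without overlap, a difference of -0.37 ± 0.20. Of the ATP-gated ion channels, P2rx5 differed by 0.49 ± 0.29 and P2rx1, a receptor of platelets and smooth muscle, by -0.45 ± 0.39, at 0.110 to 0.209 FPKM in knockout and 0.247 to 1.22 FPKM in wild-type libraries.

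RNA from the mitochondrial genome was lower in the knockout on the deposited scale. Mitochondrial reads made up 46.8, 69.3, 59.5 and 68.8% of assigned reads in the knockout libraries and 78.1, 79.3, 75.6 and 75.8% in the wild-type libraries. Every knockout library lay below every wild-type library, and the knockout libraries spread far more. The means were 61.1 ± 10.6% and 77.2 ± 1.82% (SD, n = 4 each), a difference of -16.1 percentage points (exact permutation test, two-sided, p = 0.0286, adjusted p = 0.0381 over 4 library measures). With any 1 of the wild-type libraries left out, the exact p was 0.0857, with a difference of -16.6 to -15.4 points. The count of reads from other chromosomes moved the opposite way. It was 17.0, 7.94, 10.1 and 7.60 M in knockout against 5.06, 5.14, 5.90 and 5.09 M in wild-type libraries (exact permutation p = 0.0286, adjusted p = 0.0381). This count is what remains of assigned reads beside the mitochondrial reads. Its test is therefore not independent of that of the share, although both are counted among the 4 library measures. Mitochondrial reads themselves numbered 14.9, 17.9, 14.8 and 16.8 M in knockout and 18.0, 19.7, 18.2 and 15.9 M in wild-type libraries. These counts overlapped, with PNXM656 and PNXM646 above PNXM648. Total assigned reads averaged 26.7 ± 3.48 M and 23.3 ± 1.67 M (SD), an exact permutation p of 0.0857. Depth and nuclear RNA thus moved together with the mitochondrial share, and their part in it was not tested.

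All 13 mitochondrially encoded protein genes had differences below 0, 12 of them with an unadjusted p below 0.05 (4.09% of all genes) and 10 with non-overlapping groups (2.47% of all genes). Their median difference was -1.23. These transcripts are cut from the same long precursors, so they are not independent of each other. Among the complex I subunits, mt-Nd2 was read at 34550, 59770, 51390 and 63510 FPKM in knockout and at 114100, 147800, 89690 and 129500 FPKM in wild-type libraries, a difference of -1.22 ± 0.31. The same genotype order held in mt-Nd1 (-1.11 ± 0.30), mt-Nd4 (-1.31 ± 0.37), mt-Nd5 (-1.30 ± 0.38) and mt-Nd6 (-1.26 ± 0.37), with no overlap in any of these. Complex III's mt-Cytb (cytochrome b) differed by -1.27 ± 0.34, with 45900, 98060, 68030 and 101500 FPKM in knockout against 174500, 224400, 141100 and 191700 FPKM in wild-type libraries. Within the knockout, PNXM654 was the lowest library for each of these 6 transcripts.

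For complex IV, mt-Co1 was read at 106800, 186300, 161800 and 185300 FPKM in knockout and at 367500, 435700, 276600 and 418200 FPKM in wild-type libraries, 2.34-fold lower (-1.24 ± 0.32). The other 2 subunits of that complex differed by -1.01 ± 0.37 (mt-Co2, whose groups overlapped) and -0.98 ± 0.34 (mt-Co3). Of the ATP synthase subunits, mt-Atp8 was read at 264, 332, 313 and 343 FPKM in knockout and 719, 798, 534 and 938 FPKM in wild-type libraries. Its difference was -1.23 ± 0.29, and that of mt-Atp6 was -0.97 ± 0.32. The ribosomal RNAs behaved alike, with -0.96 ± 0.28 for mt-Rnr1 and -1.27 ± 0.30 for mt-Rnr2. The exceptions were mt-Nd4l, where knockout values of 2485 to 13880 FPKM overlapped wild-type values of 13170 to 36860 FPKM (-1.77 ± 0.61), and mt-Nd3, which did not move with the others (-0.06 ± 0.45).

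The size of these differences depends on the scaling. The median of the 13 genes was -0.833 when totals outside the mitochondrial chromosome were made equal and -0.376 with total assigned reads as library size. Over all genes tested the median was 0.28 and 0.553 under these scalings, so the 13 genes stayed below all genes in both. After quantile normalisation the median of the 13 genes was 0.00, and mt-Nd1, mt-Co2, mt-Co3, mt-Atp6, mt-Nd3 and mt-Rnr1 turned positive. Quantile normalisation gives the highest ranks the same values in every library, and mitochondrial genes hold those ranks. Overlapping mt-Atp8 and mt-Atp6, and mt-Nd6 on the opposite strand, can share reads because strand use is not stated, and nuclear copies of mitochondrial sequence can take reads from them.

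**Figure D1:**
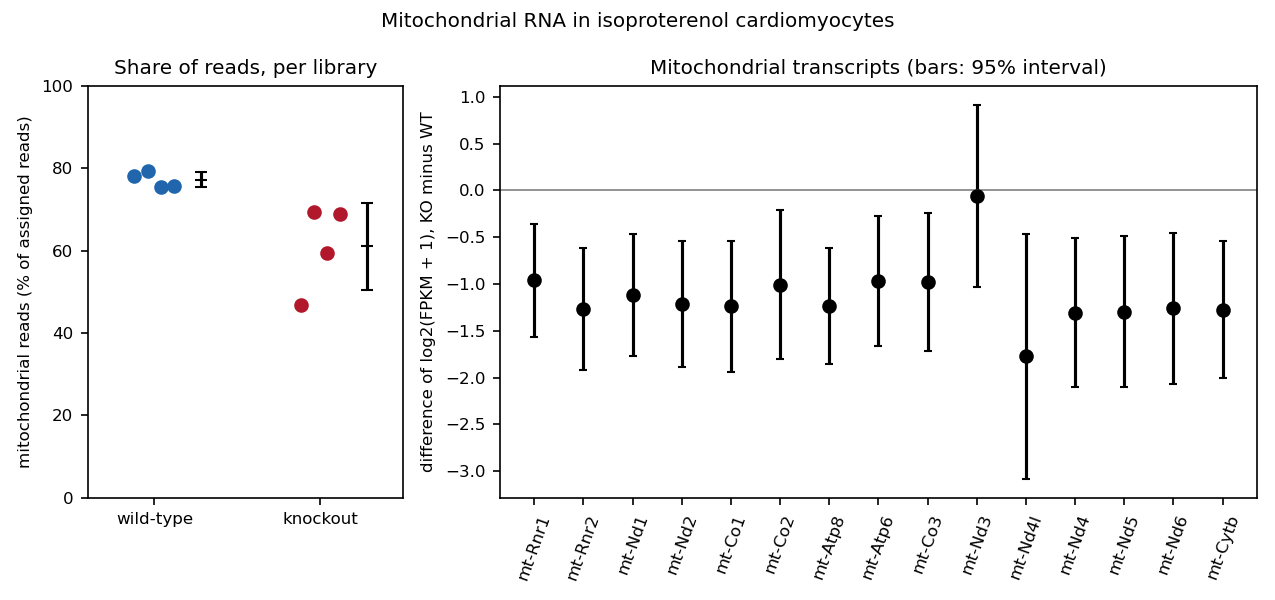
Left, mitochondrial reads as percent of assigned reads, 1 point per library, with the mean and SD beside each group of 4; right, knockout minus wild-type difference of log2(FPKM + 1) for 15 mitochondrial transcripts in genome order, with 95% intervals from limma. The knockout libraries lie at 46.8 to 69.3% and the wild-type libraries at 75.6 to 79.3%, and 14 transcripts have intervals below 0 on the deposited scale, while under quantile normalisation mt-Nd1, mt-Co2, mt-Co3, mt-Atp6, mt-Nd3 and mt-Rnr1 turn positive.

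Nuclear genes of energy metabolism showed the opposite sign but did not separate the groups. All 52 nuclear respiratory chain genes had differences above 0 (51.4% of all genes did), with a median of 0.44 (0.0812 without PNXM654 and 0.785 without PNXM656), yet 0 of them reached an unadjusted p of 0.05 and 0 had non-overlapping groups. The mean log2(FPKM + 1) over that list was 7.82, 5.59, 7.35 and 6.20 in knockout libraries and 5.96, 5.88, 5.99 and 7.32 in wild-type libraries. Knockout PNXM656 was the lowest of all 8, and wild-type PNXM648 lay among the high knockout libraries. The 25 sarcomere genes had the same pattern, with all 25 above 0, a median of 0.56 (0.245 without PNXM654 and 0.928 without PNXM656), no unadjusted p below 0.05, and list means of 7.65, 5.68, 7.19 and 6.34 against 5.79, 5.63, 6.15 and 7.13. Genes of the contractile apparatus and of the nuclear respiratory chain thus went up and down together from library to library. The mitochondrially encoded mean minus the sarcomere mean was 6.02, 8.98, 7.03 and 8.44 in knockout and 9.61, 10.1, 8.94 and 8.48 in wild-type libraries, so relative to muscle transcripts the groups overlapped, with PNXM656 above PNXM645 and PNXM648.

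Genes of mitochondrial upkeep were also mostly above 0. All 41 mitochondrial ribosomal proteins were above 0, with a median of 0.23 that was 0.0227 without PNXM654 and 0.448 without PNXM656. Of 24 genes of mitochondrial RNA synthesis and maintenance 22 were above 0 (median 0.24, and 0.0913 without PNXM654), where Top1mt, the mitochondrial topoisomerase, differed by 0.35 ± 0.13. Ppargc1a, a coactivator that drives mitochondrial gene expression, was read at 3.11, 1.32, 2.51 and 1.92 FPKM in knockout and 1.14, 0.659, 1.38 and 2.08 FPKM in wild-type libraries, a difference of 0.48 ± 0.20. Those groups overlapped through PNXM656 and PNXM648. Of the 16 regulators in its list 11 were above 0, with a median of 0.13. Mtrf1, a mitochondrial translation release factor, differed by 0.62 ± 0.17 and Sirt4, a mitochondrial sirtuin that restrains fuel oxidation, by 0.50 ± 0.14, at 2.55, 1.61, 1.60 and 1.73 FPKM in knockout against 0.961, 0.709, 1.08 and 1.37 FPKM in wild-type libraries without overlap.

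Substrate genes were mostly above 0 with a few members standing out. All 27 genes of pyruvate entry and the tricarboxylic acid cycle were above 0 (median 0.46, 0.17 without PNXM654 and 0.742 without PNXM656), 2 of them with an unadjusted p below 0.05 (2.11% of all genes). Pdk4, the kinase that shuts down pyruvate dehydrogenase and so spares glucose, was read at 38.9, 19.0, 18.1 and 27.9 FPKM in knockout and 13.5, 6.48, 12.1 and 14.9 FPKM in wild-type libraries. All 4 knockout libraries lay above all 4 wild-type libraries, 2.21-fold higher in the mean (1.07 ± 0.32). Mpc1, a subunit of the mitochondrial pyruvate carrier, differed by 0.93 ± 0.36 with overlapping groups. Of 32 genes of fatty acid uptake and oxidation, 31 were above 0 (median 0.39, 0.168 without PNXM654 and 0.692 without PNXM656). Ucp3, an uncoupling protein of muscle mitochondria linked to fatty acid oxidation, was read at 9.51, 3.08, 4.48 and 5.93 FPKM in knockout and 1.44, 0.964, 1.57 and 5.20 FPKM in wild-type libraries (1.10 ± 0.35). Only wild-type PNXM648 reached the knockout range. Acot2, a mitochondrial acyl-CoA thioesterase, differed by 0.61 ± 0.27. The single member below 0 was Ucp2, the uncoupling protein of leukocytes and many other cells, at 14.9, 22.6, 18.7 and 17.1 FPKM in knockout and 29.1, 77.4, 17.9 and 37.4 FPKM in wild-type libraries (-0.92 ± 0.39), with the wild-type peak in PNXM647. Glycolysis leaned less, with 19 of 26 genes above 0, a median of 0.19, and no unadjusted p below 0.05; that median was -0.04 without PNXM654.

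**Figure D2:**
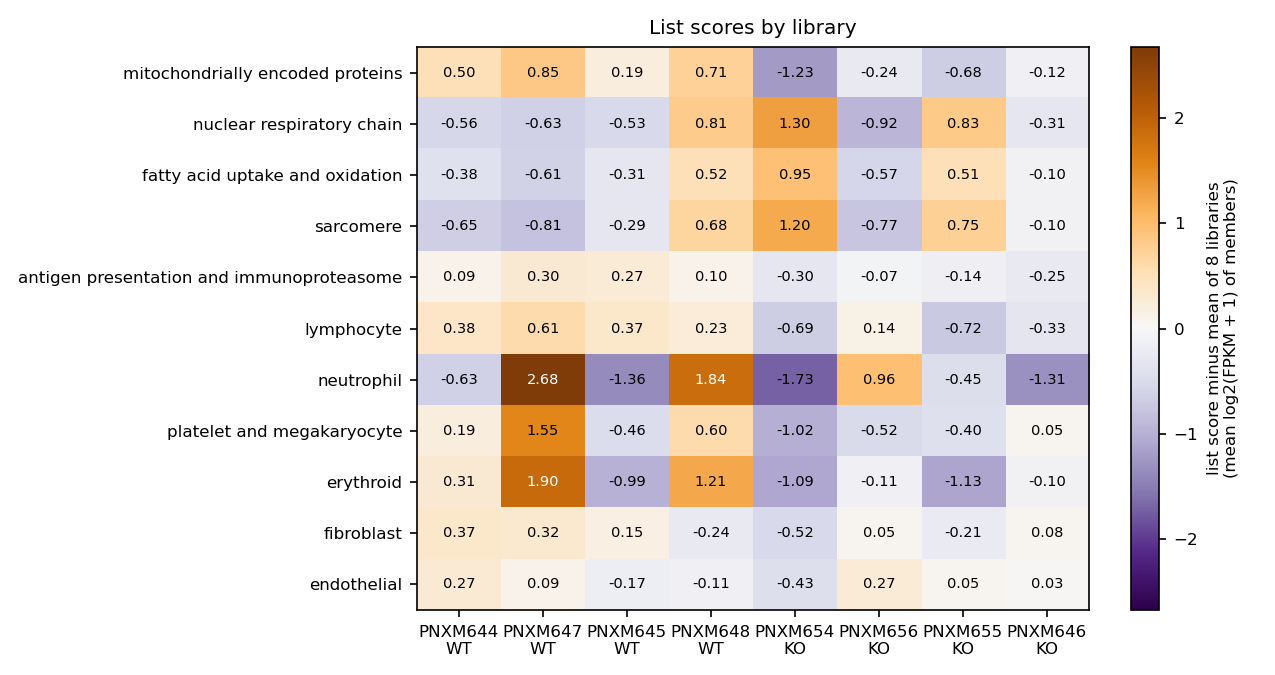
Mean log2(FPKM + 1) of the tested members of 11 gene lists in each library, as a difference from the mean of the 8 libraries, with wild-type libraries at the left and knockout libraries at the right. Nuclear respiratory chain, fatty acid and sarcomere rows follow each other across libraries of both genotypes, while the mitochondrially encoded and antigen presentation rows have different signs in the 2 genotypes on the deposited scale. With total assigned reads as library size the antigen presentation median turned positive (0.285), below the median of all genes (0.553).

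Several growth and stretch-response genes were higher in the knockout. Ctgf, a matricellular protein made in response to stretch and to YAP activity, was read at 21.6, 23.1, 18.7 and 16.6 FPKM in knockout and 9.09, 8.45, 11.4 and 8.53 FPKM in wild-type libraries. The groups were far apart, 2.13-fold higher in the knockout (1.01 ± 0.25), and the difference lay between 0.943 and 1.10 when each library was left out in turn. Ankrd1, a sarcomere-associated repressor induced in stressed heart muscle, was read at 254, 101, 176 and 219 FPKM in knockout and 45.4, 39.4, 86.1 and 115 FPKM in wild-type libraries, 2.62-fold higher (1.43 ± 0.37), with PNXM656 just below PNXM648. Its relative Ankrd23 did not overlap, at 1.63 to 4.95 against 0.665 to 1.52 FPKM (0.77 ± 0.24). Nppb, the B-type natriuretic peptide that marks a loaded ventricle, had the largest difference above 0 of any gene tested (2.20 ± 0.70). Its values were 484, 37.2, 202 and 72.4 FPKM in knockout and 18.8, 17.8, 19.5 and 79.8 FPKM in wild-type libraries, so PNXM648 exceeded 2 knockout libraries. Myh7, the fetal myosin heavy chain, was read at 9.67, 6.51, 12.2 and 9.14 FPKM against 3.56, 2.79, 7.21 and 7.13 FPKM (0.80 ± 0.32).

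Ctgf, Ankrd1, Nppb and Myh7 are the 4 genes of the hypertrophy and fetal list with an unadjusted p below 0.05 (2.11% of all genes). Of 19 tested, 12 were above 0 (median 0.14, and 0.358 without PNXM656) and 7 below, the lowest at -1.04. The sarcomere list mean was highest in knockout PNXM654 (7.65) and PNXM655 (7.19) and in wild-type PNXM648 (7.13). Its part in the differences of these 4 genes was not tested. The list of YAP and TEAD targets, the transcriptional output of the Hippo pathway, was split, with 13 of 25 above 0 and a median of 0.02. Ctgf and Ankrd1 were its only members with an unadjusted p below 0.05 (2.11% of all genes were higher at that level). Cyr61, a close relative of Ctgf, was at 15.4 to 23.01 FPKM in knockout and 10.8 to 16.4 FPKM in wild-type libraries (0.37 ± 0.24). Axl, a receptor kinase also counted among the targets, lay the other way without overlap, at 24.3 to 33.6 FPKM in knockout and 34.9 to 42.6 FPKM in wild-type libraries (-0.38 ± 0.21).

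The 250 bases before the start sites of the stress genes are shown because TEAD factors are known to bind the letters CATTCC (or GGAATG on the other strand), which are capitalised here. Sequences are from RefSeq (GRCm38.p6), on each gene's own strand, 5′ to 3′: Ankrd1 at chr19:36119845-36120094 (minus strand), Nppb at chr4:147985650-147985899 (plus strand) and Myh7 at chr14:54994627-54994876 (minus strand, the first of 2 start sites listed).
Ankrd1: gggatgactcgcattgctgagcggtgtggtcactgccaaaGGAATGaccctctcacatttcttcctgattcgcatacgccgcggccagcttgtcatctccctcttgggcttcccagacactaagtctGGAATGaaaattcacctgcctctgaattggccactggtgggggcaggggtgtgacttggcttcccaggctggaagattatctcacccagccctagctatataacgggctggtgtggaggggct
Nppb: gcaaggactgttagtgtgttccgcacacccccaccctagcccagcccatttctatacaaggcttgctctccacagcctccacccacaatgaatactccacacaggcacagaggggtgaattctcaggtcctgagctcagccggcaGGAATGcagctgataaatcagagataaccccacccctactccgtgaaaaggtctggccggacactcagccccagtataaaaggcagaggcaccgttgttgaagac
Myh7: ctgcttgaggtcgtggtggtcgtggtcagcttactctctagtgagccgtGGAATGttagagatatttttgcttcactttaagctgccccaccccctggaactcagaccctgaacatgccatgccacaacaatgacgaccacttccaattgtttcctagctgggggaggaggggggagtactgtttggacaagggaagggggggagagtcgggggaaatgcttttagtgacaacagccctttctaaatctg
Counted from the start site, the letters begin at -210 and -123 in Ankrd1, at -105 in Nppb and at -201 in Myh7, while the window of the second Myh7 start site holds none. Axl, whose difference had the opposite sign, holds them at -233. Of all 32851 promoter windows of this length, 4153 (12.6%) hold the letters on either strand. Promoters of Ctgf and Tead1 were not analysed here. A match of letters is a description and not evidence of binding.

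Beta-adrenergic signalling genes, the pathway that isoproterenol drives, were split, with 16 of 28 above 0 and a median of 0.02, but the 5 with an unadjusted p below 0.05 were all above 0 (2.11% of all genes were). Adrb1, the main beta receptor of the ventricle, was read at 4.91, 2.33, 3.38 and 2.16 FPKM in knockout and 1.35, 1.67, 2.48 and 2.35 FPKM in wild-type libraries, 1.63-fold higher with overlap (0.47 ± 0.19). Rapgef4 (Epac2), a cyclic AMP sensor, did not overlap, at 1.65, 1.52, 1.47 and 1.52 FPKM against 0.912, 0.792, 1.25 and 1.23 FPKM (0.32 ± 0.11). Akap6, which anchors protein kinase A at the nuclear envelope, differed by 0.56 ± 0.21, Pde3a, which degrades cyclic AMP, by 0.37 ± 0.15, and Grk5, which desensitises the receptor, by 0.30 ± 0.13. Akap7, another kinase anchor in heart muscle that was not in the list, was at 2.24 to 2.38 FPKM against 1.19 to 1.75 FPKM without overlap (0.41 ± 0.11).

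Among the genes of electrical coupling, 12 of 14 connexin and intercalated disc genes were above 0 (median 0.29), 3 with an unadjusted p below 0.05 (2.11% of all genes). Gja1 (connexin 43), the main gap junction protein of the ventricle, was read at 76.1, 44.5, 57.7 and 39.8 FPKM in knockout and 32.1, 23.6, 31.0 and 40.9 FPKM in wild-type libraries, 1.71-fold higher (0.74 ± 0.25). Only PNXM648 lay within the knockout range. Gjc1 (connexin 45) differed by 0.29 ± 0.13 without overlap and Dsc2, a desmosomal cadherin, by 0.52 ± 0.22. Potassium and sodium channel genes were above 0 in 18 of 19 cases (median 0.44, 0.238 without PNXM654 and 0.665 without PNXM656). Kcnq1, the pore of the slow repolarising potassium current, differed by 0.87 ± 0.33, and the sulfonylurea receptors of ATP-sensitive potassium channels by 0.70 ± 0.32 (Abcc8) and 0.67 ± 0.29 (Abcc9). Of 20 calcium handling genes 16 were above 0 (median 0.38, and 0.183 without PNXM654). The sodium-calcium exchanger Slc8a1 (0.48 ± 0.22) was the only one with an unadjusted p below 0.05 (2.11% of all genes). The sarcomere list mean beside them ran from 5.68 to 7.65 in knockout and from 5.63 to 7.13 in wild-type libraries, and its part in these lists was not tested.

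Most antigen presentation genes lay below 0 on the deposited scale, and the list median lay above it with total assigned reads as library size. Of 22 tested, 18 were lower in the knockout, 10 with an unadjusted p below 0.05 and 12 with non-overlapping groups, against 4.09% and 2.47% of all genes, and the median was -0.44. The list mean ran from 4.23 to 4.46 in knockout and from 4.62 to 4.83 in wild-type libraries, so each knockout library lay below each wild-type library. Psmb9, a catalytic subunit of the immunoproteasome that cuts peptides for presentation, was read at 3.27, 4.90, 3.97 and 3.69 FPKM in knockout and 5.60, 7.82, 5.68 and 6.64 FPKM in wild-type libraries (-0.58 ± 0.14). Its partner Psmb8 was at 6.06 to 7.97 against 9.27 to 10.3 FPKM (-0.47 ± 0.23). Tap1, which pumps those peptides into the endoplasmic reticulum, was at 4.24, 4.67, 4.46 and 4.23 FPKM against 5.74, 5.95, 6.32 and 5.28 FPKM (-0.34 ± 0.14).

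The class I molecules themselves followed. H2-K1 was read at 95.2, 133, 115 and 106 FPKM in knockout and 166, 164, 203 and 147 FPKM in wild-type libraries, 1.52-fold lower (-0.60 ± 0.23). H2-D1 differed by -0.66 ± 0.26, H2-T23 by -0.41 ± 0.17 and H2-Q7 by -0.53 ± 0.17, the last with overlapping groups. Class I genes are near-identical copies of each other, so how reads were shared between them is uncertain. B2m, the light chain that all of them need, has no such copies and was read at 262, 379, 324 and 309 FPKM in knockout and 448, 474, 475 and 402 FPKM in wild-type libraries, 1.41-fold lower (-0.51 ± 0.22). Class II genes, which are made by professional antigen-presenting cells, also did not overlap between groups, at -0.69 ± 0.32 for H2-Ab1, -0.67 ± 0.31 for H2-Eb1, -0.74 ± 0.32 for H2-DMa and -0.69 ± 0.35 for the invariant chain Cd74. With total assigned reads as library size every gene named in these 2 paragraphs turned positive, from 0.00954 in H2-DMa to 0.407 in H2-T23, and the list median was 0.285, below the median of all genes (0.553).

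Promoters of class I genes are known to carry interferon-stimulated response elements, so the letters GAAANNGAAA (TTTCNNTTTC on the other strand), a motif searched after the values were seen, were looked for in the 250 bases before 7 start regions (B2m, H2-T23, H2-K1, H2-D1, H2-Q7, Psmb9 and Tap1). The letters were found in B2m at chr2:122147437-122147686 (plus strand) and in H2-T23 at chr17:36032702-36032951 (minus strand), shown in capitals on each gene's own strand, 5′ to 3′ (RefSeq, GRCm38.p6).
B2m: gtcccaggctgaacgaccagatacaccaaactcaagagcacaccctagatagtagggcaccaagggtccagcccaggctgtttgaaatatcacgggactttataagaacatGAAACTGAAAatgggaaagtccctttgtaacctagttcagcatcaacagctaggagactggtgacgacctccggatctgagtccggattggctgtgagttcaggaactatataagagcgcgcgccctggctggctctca
H2-T23: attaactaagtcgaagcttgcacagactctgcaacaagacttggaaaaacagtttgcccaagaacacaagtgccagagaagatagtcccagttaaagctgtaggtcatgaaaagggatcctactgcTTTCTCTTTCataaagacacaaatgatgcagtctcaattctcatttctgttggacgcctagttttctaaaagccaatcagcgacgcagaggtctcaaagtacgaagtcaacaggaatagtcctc
They begin at -139 in B2m and at -124 in H2-T23 from the start site. The windows of the other 5 genes do not hold these letters, which says nothing of other forms of the element. The share of all 32851 windows that hold them is 2.98% (978). The Psmb9 and Tap1 windows (chr17:34187331-34187580, minus strand, and chr17:34187306-34187555, plus strand) are nearly the same stretch, from which the genes are read in opposite directions.

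Other interferon-stimulated genes leaned the same way only slightly, with 23 of 30 below 0 and 3 with an unadjusted p below 0.05 (4.09% of all genes). Their median was -0.13, and 0.202 with equal totals outside the mitochondrial chromosome (0.28 over all genes). Without PNXM654 that median was -0.0609. Irf8, a transcription factor of myeloid and B cells, differed by -0.51 ± 0.19 without overlap, and Gbp2, a guanylate-binding protein, by -0.63 ± 0.27. Gsdmd, the pore-forming executor of pyroptosis, was at 5.35, 8.76, 6.97 and 8.42 FPKM in knockout and 10.2, 11.1, 9.84 and 9.18 FPKM in wild-type libraries (-0.42 ± 0.17). It was the only one of 19 inflammasome and caspase genes with an unadjusted p below 0.05 (4.09% of all genes).

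**Figure D3:**
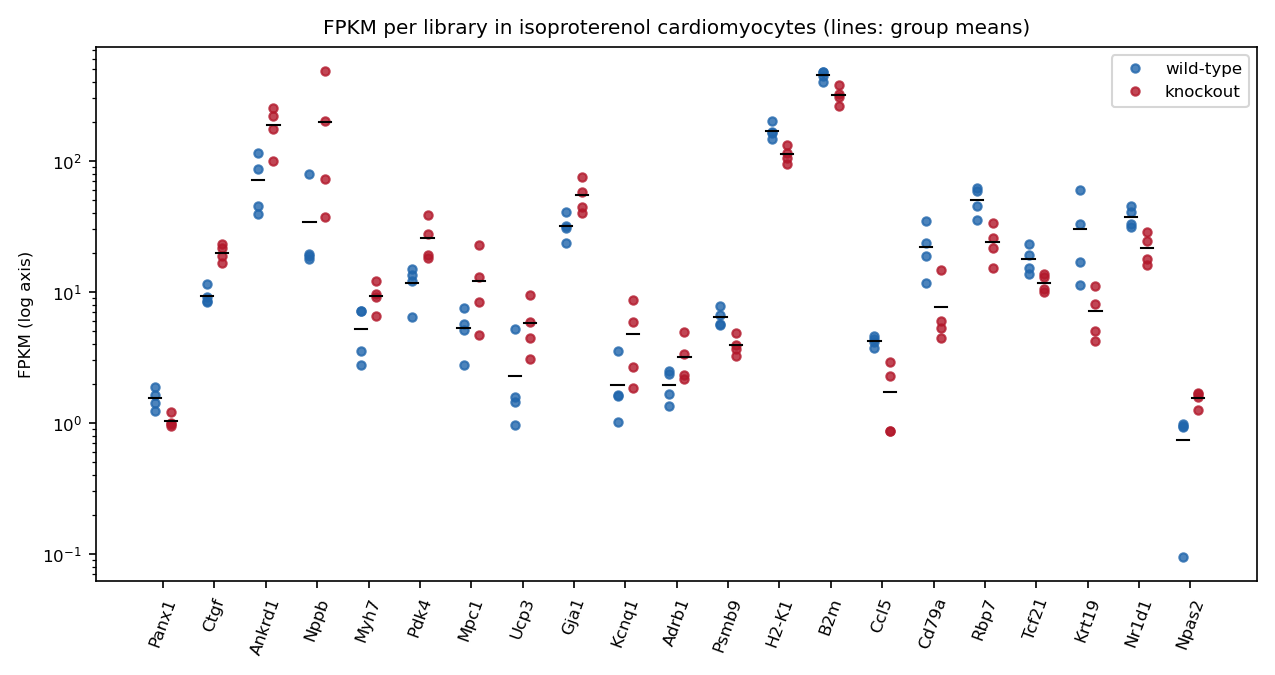
FPKM of 21 genes in each of the 8 libraries on a log axis, wild-type in blue and knockout in red, with lines at group means. Panx1, Ctgf, Pdk4, Psmb9, H2-K1, B2m, Ccl5, Rbp7, Tcf21, Krt19, Nr1d1 and Npas2 have groups that do not overlap, while Nppb spans 37.2 to 484 FPKM in the knockout. With total assigned reads as library size, where the median of all genes was 0.553, Panx1, Psmb9, H2-K1, B2m, Tcf21 and Nr1d1 turned positive.

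Markers of white blood cells lay in the same direction as the antigen presentation genes. All 24 lymphocyte genes tested were below 0 (48.4% of all genes were), 8 with an unadjusted p below 0.05 (4.09% of all genes) and 7 without overlap (2.47% of all genes), with a median of -0.79. Cd79a, a signalling chain of the B cell receptor, was read at 5.30, 14.8, 4.49 and 6.02 FPKM in knockout and 23.7, 34.6, 18.9 and 11.6 FPKM in wild-type libraries, 2.91-fold lower (-1.46 ± 0.54), with PNXM656 above PNXM648. Ltb (lymphotoxin beta) differed by -1.38 ± 0.39, Nkg7, of natural killer and cytotoxic T cells, by -0.89 ± 0.30 and the immunoglobulin light chain Igkc by -1.59 ± 0.59. The 7 without overlap were T cell genes at low level, among them Trac at 0.420 to 1.35 FPKM in knockout and 1.41 to 2.01 FPKM in wild-type libraries (-0.64 ± 0.73), Cd3e (-0.55 ± 0.76) and Cd8a (-0.61 ± 1.05), with a wide SE, since the saline libraries in the same fit ran from 1.46 to 60.8 FPKM for Trac. Macrophage and monocyte genes were below 0 in 21 of 25 cases, with a median of -0.30 (-0.166 without PNXM647). With equal totals outside the mitochondrial chromosome that median was 0.0153, below the 0.28 of all genes. Of these genes 2 were without overlap (2.47% of all genes) and none had an unadjusted p below 0.05. The summed FPKM of the lymphocyte genes was 78.9, 302, 92.6 and 166 in knockout and 315, 682, 322 and 269 in wild-type libraries, and that of the macrophage genes 632, 883, 812 and 681 against 830, 1859, 956 and 1069. The macrophage and antigen presentation lists share Cd74, and the part of these cells in the antigen presentation difference was not tested.

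Neutrophil genes lay below 0 as a list, with no single gene past an unadjusted p of 0.05. All 26 tested were below 0 in the knockout (median -1.36), but 0 had an unadjusted p below 0.05 and 0 were free of overlap. The list mean was 1.06, 3.76, 2.34 and 1.48 in knockout and 2.16, 5.47, 1.43 and 4.64 in wild-type libraries. Wild-type PNXM647 and PNXM648 were high, wild-type PNXM645 was below 3 of the knockout libraries, and the median ran from -2.14 without PNXM645 to -0.507 without PNXM647. Ly6g, a surface marker of mouse neutrophils, was listed at 0, 3.91, 0.648 and 0.106 FPKM in knockout and 1.57, 20.7, 0 and 10.4 FPKM in wild-type libraries (-1.54 ± 0.80). The alarmin S100a8 ranged from 6.60 to 230 FPKM in knockout and from 8.61 to 634 FPKM in wild-type libraries. The secreted lectin Chil3 differed by -1.95 ± 1.003, the formyl peptide receptor Fpr1 by -0.90 ± 0.46 and the histamine-forming enzyme Hdc by -0.55 ± 0.28.

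Signals that recruit neutrophils and other leukocytes were examined beside the neutrophil genes. Of 16 tested, 13 were below 0 (median -0.27, and -0.128 without PNXM647), 4 with an unadjusted p below 0.05 (4.09% of all genes). The list median turned to 0.0521 with equal totals outside the mitochondrial chromosome, below the 0.28 of all genes. Ccl5, a chemokine made by T cells, natural killer cells and platelets, was read at 0.870, 2.90, 0.863 and 2.28 FPKM in knockout and 4.63, 3.74, 4.13 and 4.38 FPKM in wild-type libraries, 2.44-fold lower without overlap (-1.01 ± 0.28). Anxa1, a phospholipid-binding protein that limits neutrophil influx, differed by -1.04 ± 0.41, and complement C3 by -1.12 ± 0.51. Selplg, the leukocyte ligand of P-selectin, differed by -0.88 ± 0.40, and it is carried by the leukocytes themselves. Members below the filter included the neutrophil chemokines Cxcl1, Cxcl2, Cxcl3 and Cxcl5, whose group means were 0.613 against 0.742, 0.157 against 0.165, 0 against 0.00675 and 0.190 against 0.420 FPKM (knockout against wild-type).

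Platelet and red cell transcripts lay below 0 as lists. All 10 platelet and megakaryocyte genes were below 0 (median -0.91, and -0.508 without PNXM647), 7 with an unadjusted p below 0.05 (4.09% of all genes). Nrgn, abundant in platelets, was read at 2.66, 5.82, 6.21 and 12.4 FPKM in knockout and 15.5, 44.2, 7.33 and 19.97 FPKM in wild-type libraries (-1.44 ± 0.53), with Ppbp (-1.42 ± 0.56), Itga2b (-1.01 ± 0.41) and Gp5 (-0.69 ± 0.28) alike. All 11 erythroid genes were below 0 (median -1.42), none with an unadjusted p below 0.05. Hba-a1, one of a pair of near-identical globin copies, was at 2184, 5769, 2345 and 5726 FPKM in knockout and 9207, 30100, 3107 and 19880 FPKM in wild-type libraries (-1.67 ± 0.80), and Bpgm, a red cell enzyme, differed by -1.43 ± 0.67. In both lists PNXM647 was the highest of the 8 libraries and PNXM648 the second highest, as for the neutrophil genes.

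Fibroblast genes were below 0 in 22 of 23 cases (48.4% of all genes were), with a median of -0.34 (-0.209 without PNXM654), 2 with an unadjusted p below 0.05 (4.09% of all genes) and 3 without overlap (2.47% of all genes). Their median turned to 0.0467 with equal totals outside the mitochondrial chromosome and to 0.459 with total assigned reads. It stayed below the median of all genes, which was 0.28 and 0.553 under these scalings. Tcf21, a transcription factor of resident cardiac fibroblasts, was read at 9.94, 10.5, 12.9 and 13.8 FPKM in knockout and 23.1, 19.0, 13.8 and 15.3 FPKM in wild-type libraries, its closest libraries nearly touching (-0.54 ± 0.20). Fbln1 (fibulin 1), a matrix protein, differed by -0.85 ± 0.34 and Gsn (gelsolin) by -0.50 ± 0.26. Endothelial genes were split, with 10 of 24 above 0 and 14 below, and none had an unadjusted p below 0.05. Their median was -0.07, and 0.302 with equal totals outside the mitochondrial chromosome (0.28 over all genes). Within the capillary lipid list (9 of 16 above 0, median 0.04), Rbp7, a retinol-binding protein of cardiac capillaries, stood alone at 15.4, 33.4, 21.7 and 25.8 FPKM in knockout against 35.6, 61.7, 58.6 and 45.4 FPKM in wild-type libraries, 2.09-fold lower (-1.05 ± 0.26). Pericyte and smooth muscle genes were above 0 in 13 of 16 cases (median 0.25, and 0.135 without PNXM647). Among them Abcc9 was the only one with an unadjusted p below 0.05 (2.11% of all genes).

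**Figure D4:**
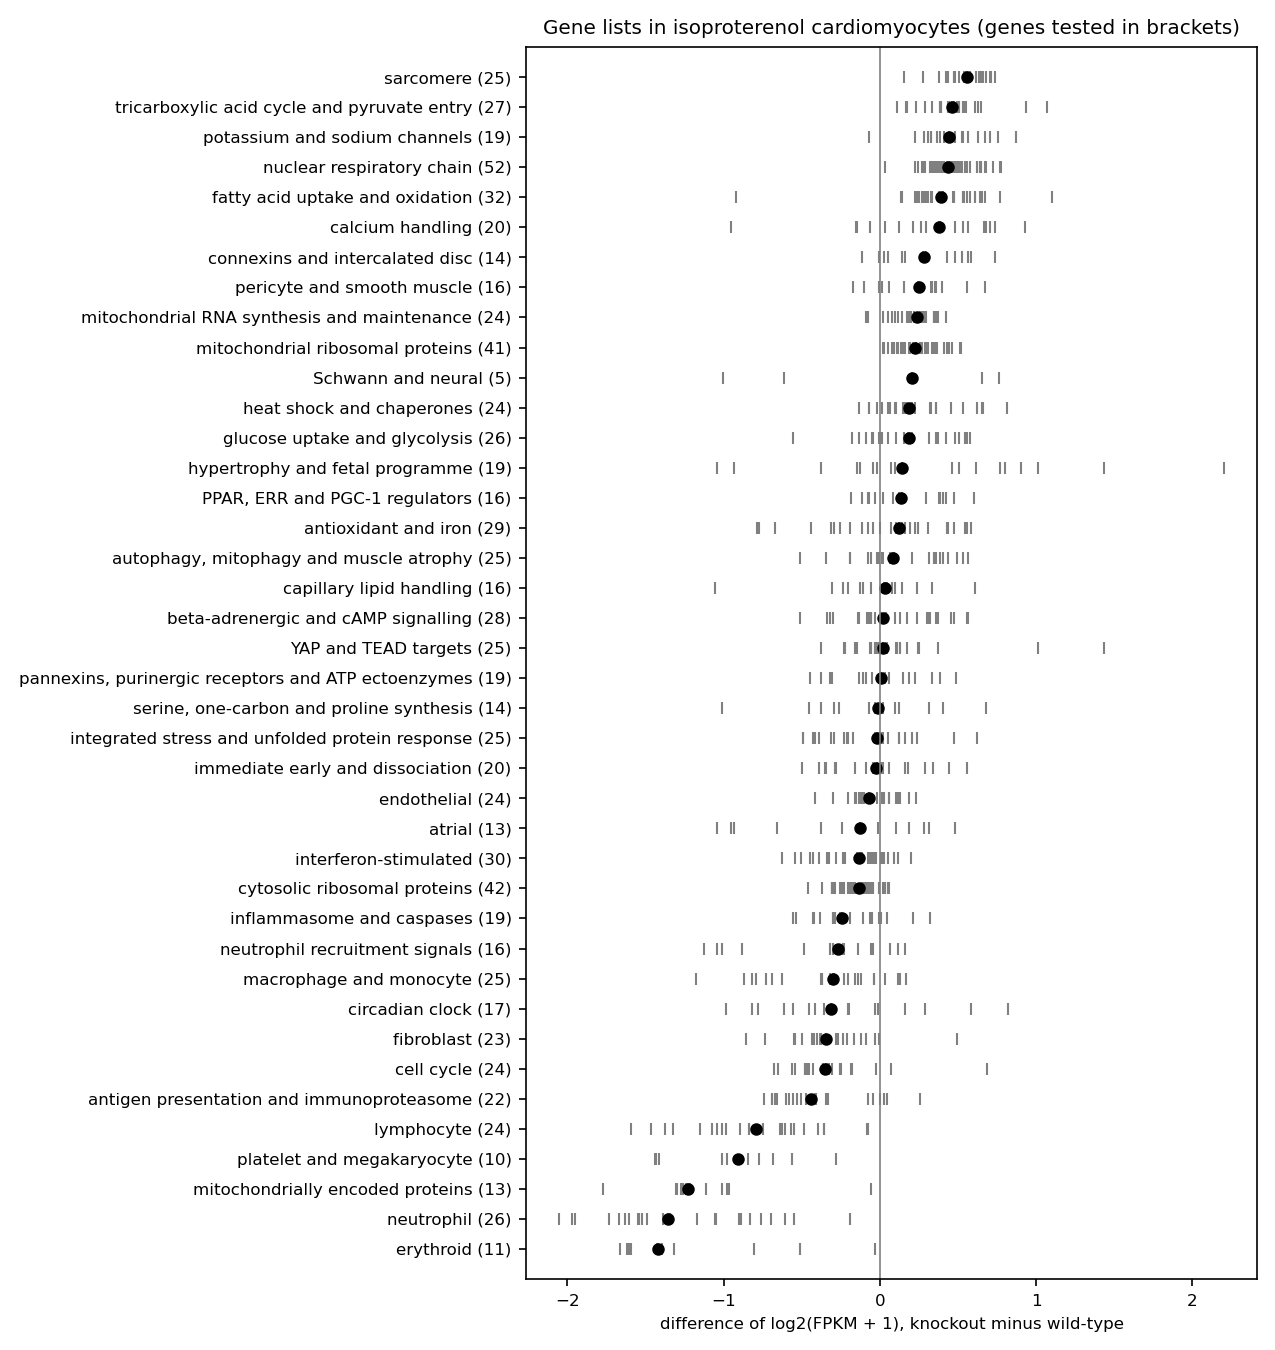
Knockout minus wild-type difference of log2(FPKM + 1) for the tested members of 40 gene lists (ticks) with each list's median (dots), sorted by median, the number tested in brackets. Erythroid, neutrophil, mitochondrially encoded, platelet and lymphocyte genes lie below 0 and sarcomere and energy metabolism genes above it on the deposited scale. With total assigned reads as library size the median of all genes was 0.553. Medians of the antigen presentation, fibroblast, macrophage, circadian, interferon, inflammasome, cell cycle, cytosolic ribosome, recruitment, atrial, endothelial, immediate early, integrated stress and serine synthesis lists then turned positive.

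The circadian clock list was lower in the median (-0.31, 13 of 17 below 0, -0.114 without PNXM645 and -0.508 without PNXM648) with its activators and their targets on opposite sides. With total assigned reads as library size its median was 0.257, against 0.553 over all genes. The activators Arntl (Bmal1) and Npas2, which form the activating heterodimer of the clock, were higher. Npas2 was read at 1.66, 1.68, 1.25 and 1.58 FPKM in knockout and 0.928, 0.946, 0.0949 and 0.985 FPKM in wild-type libraries (0.59 ± 0.22, no overlap), and Arntl at 4.25, 5.57, 2.84 and 4.03 against 2.86, 1.69, 0.783 and 2.68 FPKM (0.82 ± 0.36). Their targets lay below 0, although Nr1d1 lay above it with total assigned reads as library size. Nr1d1 (Rev-erb alpha), which represses Arntl, was at 17.9, 16.0, 24.4 and 28.8 FPKM in knockout and 45.1, 31.4, 40.9 and 32.9 FPKM in wild-type libraries (-0.78 ± 0.31, no overlap), Tef, a clock output factor, at 4.24 to 6.03 against 6.17 to 15.4 FPKM (-0.82 ± 0.32), and Dbp at 5.97 to 9.06 against 7.24 to 32.5 FPKM (-0.99 ± 0.55). Wild-type PNXM645 was the extreme library for Arntl, Npas2, Tef and Dbp. The sources used here give no hour of tissue collection, and its part in these values was not tested.

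Immediate early genes, which answer within minutes to signalling and to cell isolation, were split (9 of 20 above 0, median -0.03). Dusp1, a phosphatase that ends MAP kinase signalling, was at 36.0 to 56.5 FPKM in knockout and 25.1 to 30.9 FPKM in wild-type libraries (0.56 ± 0.23), and Egr1, a growth-response factor, at 6.92 to 7.67 against 3.96 to 5.996 FPKM (0.44 ± 0.20), neither with overlap. The integrated stress response had 11 of 25 genes above 0 (median -0.02). With equal totals outside the mitochondrial chromosome its median was 0.22, against 0.28 over all genes. In this list the pseudokinase Trib3 was lower, at 2.30, 2.14, 3.18 and 2.60 FPKM in knockout and 4.38, 4.36, 2.90 and 4.39 FPKM in wild-type libraries (-0.49 ± 0.13), with PNXM645 within the knockout range. Gdf15, a secreted stress cytokine, was higher, at 1.63, 0.655, 1.55 and 0.700 against 0.533, 0.459, 0.561 and 0.443 FPKM (0.48 ± 0.19, no overlap). Among 14 genes of serine, one-carbon and proline synthesis (median -0.01), Aldh18a1, the first enzyme of proline synthesis, was at 2.07, 1.82, 2.08 and 1.96 FPKM in knockout against 3.29, 3.34, 2.57 and 3.15 FPKM in wild-type libraries (-0.45 ± 0.11). Phgdh, the first enzyme of serine synthesis, differed by -1.01 ± 0.38, also without overlap.

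Among 5 Schwann cell and neural genes, Mal, a raft-associated membrane protein, was higher without overlap, at 4.63, 2.12, 3.15 and 1.92 FPKM in knockout and 1.36, 0.816, 1.33 and 1.59 FPKM in wild-type libraries (0.76 ± 0.19), while Mbp, myelin basic protein, differed by -1.001 ± 0.28. Outside the lists, the genes named by rank were few and of mixed function. Above 0 without overlap were Epha4, an ephrin receptor (0.58 ± 0.17), Cdk5, a kinase best known in neurons (0.45 ± 0.13), Txnrd3, a thioredoxin reductase (0.49 ± 0.14), Tmem252 (0.49 ± 0.13), Smco4 (0.58 ± 0.17) and Mcts2 (0.64 ± 0.20). Below 0 without overlap were Rac3, a small GTPase (-0.55 ± 0.13), Ptk2b, a calcium-dependent tyrosine kinase abundant in leukocytes (-0.99 ± 0.24), Fam117a (-1.03 ± 0.26), Ly6d, a surface protein of B cell precursors and epithelia (-1.60 ± 0.50), and Clic3, a chloride channel relative (-1.42 ± 0.36). Krt19, an epithelial and mesothelial keratin, had the largest of these, at 8.04, 5.04, 4.25 and 11.1 FPKM in knockout and 33.1, 59.9, 16.8 and 11.2 FPKM in wild-type libraries, 4.26-fold lower (-1.76 ± 0.54).

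Cardiomyocytes from mice given saline (3 knockout and 3 wild-type libraries, none of them shared) show which of these genotype differences were also present without isoproterenol. There 0 of 11919 genes were called (421 with an unadjusted p below 0.05, 3.53%), and across genes the saline and isoproterenol differences had a Pearson correlation of 0.42 over 11919 genes, given as a description since genes within a library share its depth. The mitochondrial share had opposite signs, 17.0 percentage points higher in saline knockouts and 16.1 points lower after isoproterenol. The difference between the effects was -33.1 points. Regrouping the genotype labels within each treatment gave an exact permutation p of 0.00143, two-sided, the smallest that 1400 regroupings allow. Such regrouping supposes no genotype difference in either treatment, so this p does not test whether the effects are equal. The median of the 13 mitochondrially encoded genes was 1.34 after saline and -1.23 after isoproterenol, and the differences of differences were -2.27 ± 0.44 for mt-Atp8 and -2.59 ± 0.46 for mt-Rnr2, both with an adjusted p of 0.19 in limma. In this test of the difference itself 0 of 11919 genes were called, with 294 below an unadjusted p of 0.05 (2.47%), and voom also called 0, with 293.

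Some other genes and list medians had opposite signs after saline and isoproterenol. Rbp7 was 0.75 higher in saline knockouts and lower after isoproterenol (difference of differences -1.80 ± 0.40, adjusted p = 0.255 in limma), and Trib3 followed the same course (0.42 after saline, -0.91 ± 0.20, adjusted p = 0.255 in limma). The fibroblast median was 0.27 after saline and -0.34 after isoproterenol (0.0467 with equal totals outside the mitochondrial chromosome, where all genes had 0.28). For the difference of effects 5 of 23 members were below an unadjusted p of 0.05 (2.47% of all genes). For the circadian list the medians were 0.34 and -0.31, with 5 of 17 members below an unadjusted p of 0.05 for that difference (2.47% of all genes). Of the genes above 0 after isoproterenol, Ctgf (0.97 after saline), Ankrd1 (1.19), Myh7 (1.18), Gja1 (0.76) and Adrb1 (0.55) were also above 0 after saline. Nppb was at 0.85 after saline against 2.20 after isoproterenol, and Pdk4 at 0.08 against 1.07. The nuclear respiratory chain (median 0.73) and sarcomere lists (0.87) were above 0 there too. Panx1 was below 0 after saline as well (-0.25 ± 0.17), but its groups overlapped. It was read at 1.724, 2 and 1.285 FPKM in saline knockout and 2.894, 1.57 and 2.165 FPKM in saline wild-type libraries. Medians after saline were -0.55 for the neutrophil, -0.47 for the lymphocyte, -0.19 for the macrophage, -0.18 for the platelet and 0.19 for the erythroid list. The antigen presentation median was -0.11 after saline, and Psmb9 was -0.01. For Psmb9 the difference of effects was -0.57, which does not pass adjustment.

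**Figure D5:**
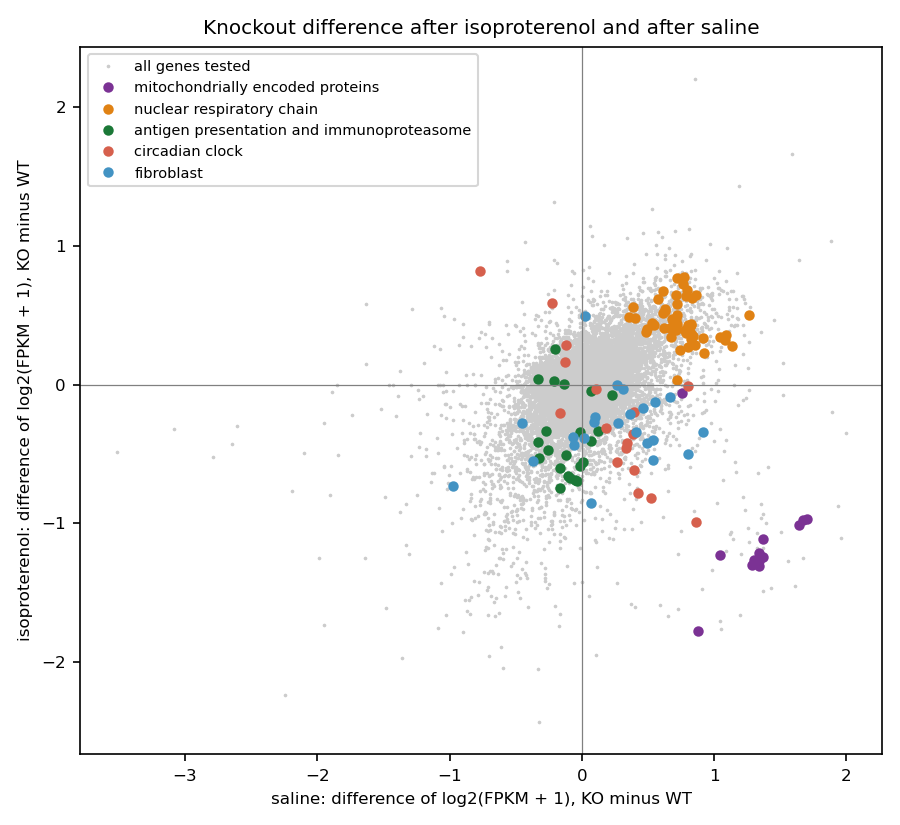
Knockout minus wild-type difference of log2(FPKM + 1) after saline (horizontal) and after isoproterenol (vertical), each point a gene, with 5 lists in colour. Mitochondrially encoded genes lie at the lower right, above 0 after saline and below 0 after isoproterenol, and nuclear respiratory chain genes at the upper right; the antigen presentation genes with the most negative values lie near 0 after saline, and their isoproterenol values turned positive with total assigned reads as library size.

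Whole hearts labelled knockout (n = 4) and wild-type (n = 5) after the same isoproterenol course were tested apart. Of 10189 genes tested 0 were called, with 652 below an unadjusted p of 0.05 (6.4%), and Panx1 in these hearts was 0.651 ± 0.189 FPKM (SD) under the knockout label and 0.412 ± 0.0657 FPKM (SD) under the wild-type label, against the labelled direction. Among the stretch and growth genes, the labelled knockout minus labelled wild-type difference was 1.06 for Ctgf, 0.92 for Ankrd1, 1.04 for Nppb, 0.13 for Myh7 and -0.09 for Ankrd23. The list medians were -0.39 for the mitochondrially encoded genes, -0.21 for the nuclear respiratory chain and 0.07 for antigen presentation. Since the Panx1 values go against the labels, these values follow the labels only, and every sign would turn if the labels were exchanged.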

How the data were processed

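RNA was sequenced from cardiomyocytes (14 libraries) and whole hearts (9 libraries), of which the 8 isoproterenol cardiomyocyte libraries are described. The authors deposited 1 gene table of FPKM values. Reads were aligned with HISAT2 2.0.5 and counted with featureCounts, per the submitters' processing notes; the genome build is absent from the sources used here, and the deposited coordinates overlapped those of GENCODE M21 (GRCm38) for 99.9% of 45228 shared gene identifiers. Within 0.01 read, 100% of 392391 deposited FPKM values are whole reads per gene length, so reads could be recovered; the median ratio of the deposited values between each library and the mean over libraries was 1.00 over 14522 genes, so a scaling between libraries is already in them. Depth was 21.03 to 31.9 M assigned reads. One misaligned line was not analysed here, and 27 symbols turned into dates by a spreadsheet were repaired. Column headers marking whole hearts were read as such.

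Genes with FPKM of at least 1 in at least 3 cardiomyocyte libraries (4 for hearts) were tested on log2(FPKM + 1) with limma 3.58.1 (R 4.3.3; mean-variance trend, Benjamini-Hochberg adjustment, threshold 0.05). The 14 cardiomyocyte libraries were fitted together by group, hearts separately, and a log2(FPKM + 1) difference understates the fold of low genes. The fit was tested on simulated data. Library measures were compared by exact two-sided permutation. Members and gene lists were chosen with earlier results of these data known. Named genes were Panx1, the 12 smallest p-values and 8 largest non-overlapping differences in each direction, and the 4 smallest p-values of each list; further genes of the antigen presentation, mitochondrial, adrenergic and lymphocyte lists, the mesothelial genes and the GAAANNGAAA search were chosen after values were seen. Alternatives were the pseudocount, the filter, the libraries fitted, 3 scalings, array weights, robust moderation, voom on recovered reads and leaving out each library. Promoters are RefSeq's. Python 3.11.15, numpy 2.4.6, pandas 2.3.3 and matplotlib 3.10.9 were used.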

Additional observations from a re-analysis of the deposited data

Results flagged for a closer look

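In 17 of 246 groups of 4 libraries, 1 library lay far from the other 3 of its genotype, beyond the 95% critical value of Dixon's gap test; chance flags about 1 in 20 such groups. Among wild-type libraries PNXM647 stood apart upwards for mt-Nd5 (105200 FPKM), Igkc (339.8 FPKM), Anxa1 (60.84 FPKM) and Phgdh (7.333 FPKM). Wild-type PNXM648 stood apart upwards for Ucp3 (5.201 FPKM), Nppb (79.83 FPKM) and Abcc8 (2.961 FPKM), where it lay near the knockout values, and downwards for Gbp2 (10.27 FPKM). Wild-type PNXM645 stood apart downwards for Trib3 (2.903 FPKM) and Npas2 (0.0949 FPKM) and upwards for Psmb8 (10.3 FPKM). Among knockout libraries PNXM656 stood apart upwards for Cd79a (14.75 FPKM), Ly6g (3.913 FPKM) and Ly6d (11.12 FPKM). Knockout PNXM654 stood apart upwards for Sirt4 (2.546 FPKM) and downwards for mt-Rnr2 (5355 FPKM), and PNXM646 upwards for Fbln1 (38.99 FPKM).

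The genotype difference in mitochondrial percent had opposite signs in the isoproterenol and saline cardiomyocytes, and the difference between them was -33.1 percentage points. The exact permutation p was 0.00143 (2-sided, the smallest that 1400 regroupings within treatment allow). It supposes no genotype difference in either treatment and does not test whether the effects are equal.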

How the results depend on the processing

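Over 20 alternatives and 121 genes, 35 of 2381 values changed sign and 47 passed the adjusted threshold; with a smallest adjusted p of 0.797, staying short of it says little. List medians of muscle and energy genes shifted without PNXM654 or PNXM656, as given with each list. No paired analysis was possible because the columns carry no replicate numbers, so a fit with a replicate block was not run. The count of called genes stayed at 0 in every alternative but total assigned reads as library size, where it was 4956, and without each library in turn it ran from 0 to 0, with 0.05 the smallest adjusted p (without PNXM645). The count at an unadjusted p below 0.05 ran from 263 to 1370 without 1 library and from 350 to 7192 otherwise. Calls for the difference between the isoproterenol and saline effects numbered 31 with all 23 libraries in 1 fit, 16 with array weights, 10031 with total assigned reads, and 0 to 1 without 1 library. The mitochondrially encoded median was 0.00 after quantile normalisation, -0.833 with equal totals outside the mitochondrial chromosome and -0.376 with total assigned reads (-1.35 to -1.0 without 1 library). The antigen presentation median was -0.114 with equal totals and 0.285 with total assigned reads (-0.526 to -0.379 without 1 library). The fatty acid median was 1.18 with total assigned reads (0.168 to 0.692 without 1 library). The neutrophil median was -0.435 with array weights (-2.14 to -0.507 without 1 library). Over all genes the median was 0.28 with equal totals and 0.553 with total assigned reads. Without 1 library the difference in mitochondrial percent ran from -18.8 to -11.3 points (exact permutation p = 0.0286 to 0.0857), in Panx1 from -0.613 to -0.394 FPKM (exact permutation p = 0.0286 to 0.0571) and in assigned reads from 1.75 to 4.25 M.

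With total assigned reads the sign turned for Panx1 0.14, mt-Nd3 0.796, Psmb9 0.119, H2-Q7 0.156, H2-D1 0.194, H2-K1 0.249, H2-T23 0.407, Tap1 0.348, B2m 0.348, H2-Ab1 0.153, H2-Eb1 0.175, Cd74 0.162, Tcf21 0.247, Gsn 0.357, Trib3 0.148, Aldh18a1 0.142, Nr1d1 0.0417, Entpd2 0.399, Gsdmd 0.325, Irf8 0.0717, Psmb8 0.269, H2-DMa 0.00954, Axl 0.447 and Gbp2 0.161. With equal totals outside the mitochondrial chromosome it turned for mt-Nd3 0.339 and Axl 0.00931, after quantile normalisation for mt-Nd1 0.0368, mt-Co2 0.0768, mt-Co3 0.234, mt-Atp6 0.278, mt-Nd3 0.865 and mt-Rnr1 0.357, and with array weights for mt-Nd3 0.145. Without 1 library mt-Nd3 ran from -0.396 to 0.387, above 0 without PNXM648 or PNXM654 (0.126). The cause of these shifts was not tested; total assigned reads as library size divides each library by its own total, which holds 46.8 to 79.3% mitochondrial reads. Depth limits the T cell genes and the neutrophil chemokines, which lie near or below 1 FPKM.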

Other observations

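Beside Krt19, 3 genes known from the mesothelium, the epithelium that covers the heart, were looked up. They were chosen after their values were seen and were in none of the lists. Msln (mesothelin) was read at 15.0, 12.4, 6.97 and 31.4 FPKM in knockout and 77.3, 116, 31.5 and 17.2 FPKM in wild-type libraries, a difference of -1.65 ± 0.60 (SE, limma). Upk3b (uroplakin 3b), a membrane protein of mesothelial cells, was at 22.9, 18.1, 12.4 and 44.5 FPKM in knockout and 114, 200, 52.6 and 30.4 FPKM in wild-type libraries (-1.78 ± 0.63). In both genes wild-type PNXM648 lay within the knockout range, and the differences ran from -2.12 to -1.23 and from -2.22 to -1.33 when each library was left out in turn. Wt1, a transcription factor of the epicardium, was at 1.20 to 2.78 FPKM in knockout and 1.16 to 5.70 FPKM in wild-type libraries (-0.66 ± 0.36). None of these differences passes adjustment, and how much outer tissue each preparation held was not tested.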
